A study of Mus musculus with 6 samples.

Results

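The genes described here are the aquaporins *Aqp1*, *Aqp4* and *Aqp7*, the beta-syntrophins *Sntb1* and *Sntb2*, and the dystrobrevin *Dtna*. They were selected on their HET against WT values in these same libraries and taken by gene symbol, and all 6 were found among the 16247 genes of the deposited normalized table and, by gene identifier, among the 51912 genes of the raw count table. RNA was sequenced from the soleus, a calf muscle rich in slow fibers, of 3 mice heterozygous for the *Mustn1* KO-first allele (HET) and 3 wild-type littermates (WT), with 1 library per mouse. All mice were 8 weeks old, of strain C57BL6/N, and the labels name no treatment. The KO-first allele is carried in every cell of the body and is meant to splice exon 1 of *Mustn1* into a lacZ trap with a neomycin resistance gene, so that the HET mice keep 1 intact copy. No groups other than these were compared.

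Aquaporins are membrane channels for water, and some, such as *Aqp7*, also pass glycerol. In muscle, *Aqp4* is known as the water channel of the fiber membrane, above all in fast fibers, while *Aqp1* is known from the endothelium of small vessels and from red blood cells, and *Aqp7* from fat cells and capillary endothelium. Aqp4 protein is known to be held at the fiber membrane by the dystrophin complex, which includes syntrophins and alpha-dystrobrevin, the product of *Dtna*. The beta-syntrophins encoded by *Sntb1* and *Sntb2* are adaptor proteins of this complex.

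The libraries held between 26790075 and 50368796 reads on genes. *Mustn1* was at 12.6, 16.8 and 13.1 CPM (reads on the gene per 1000000 reads of the library, after scaling) in the HET mice and at 23.1, 29.0 and 30.5 CPM in the WT mice, a log2 fold change of -0.96 (SE 0.15, edgeR adjusted p = 0.0452). According to the labels all mice were male, yet *Xist* had 3858 to 9154 reads in every library and 4 genes of the Y chromosome together had 0 to 12. By these reads every library came from a female mouse, against the labels. *Myh7*, the slow myosin heavy chain, lay between 13642 and 14766 CPM in all mice. HET 2 stood apart from the other HET mice, with a mean chi-square per gene of 42.9 and 47.5 against them, whereas the other same-genotype pairs had 16.6 to 27.4. In bulk RNA, fewer cells of a type and less RNA per cell cannot be told apart.

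Compared per length of exon, *Aqp1* was by far the highest of the 6 genes. Its level was 144 ± 37.3 CPM per kilobase in WT and 125 ± 12.99 in HET (SD, n = 3), and its lowest mouse, at 101, lay above every mouse of every other aquaporin. *Aqp4*, *Dtna* and *Aqp7* followed close together. *Aqp4* was at 10.2 ± 3.09 CPM per kilobase in WT and 6.37 ± 1.11 in HET, *Dtna* at 7.54 ± 0.376 and 6.45 ± 0.371, and *Aqp7* at 6.80 ± 1.97 and 6.17 ± 1.67, and the ranges of these 3 genes over the mice overlapped. *Sntb2* was at 1.36 ± 0.0477 CPM per kilobase in WT and 1.64 ± 0.317 in HET, and *Sntb1* at 1.24 ± 0.205 and 0.868 ± 0.227, again with overlapping ranges.

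**Figure D1:**
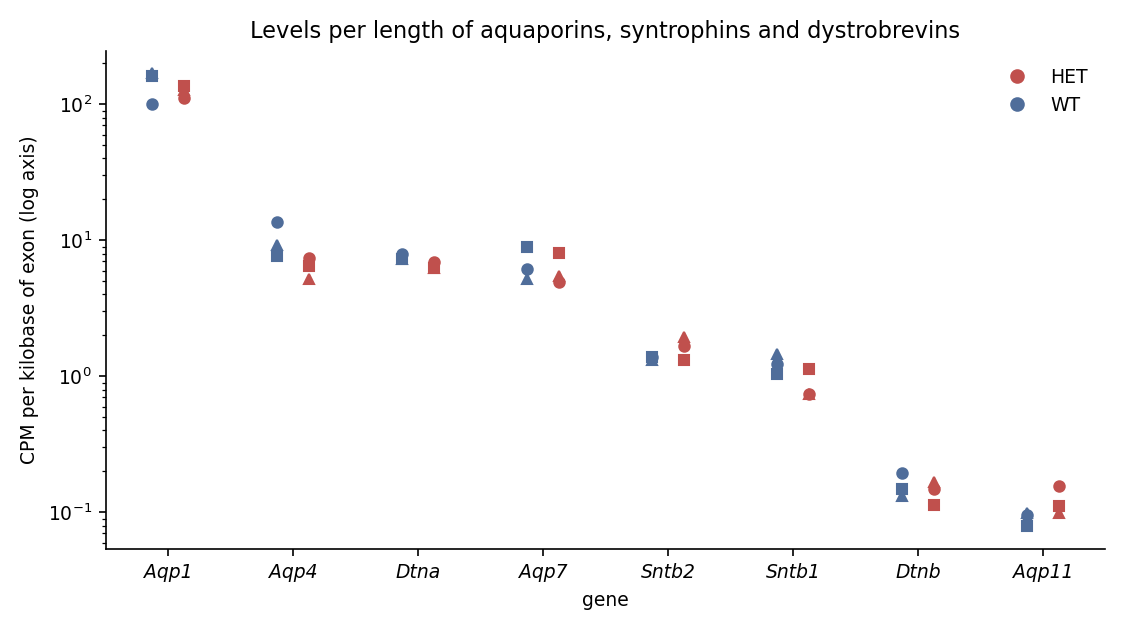
Level per length (CPM per kilobase of exon, log axis) of the tested aquaporins, syntrophins and dystrobrevins with at least 50 reads in 1 library, so that *Aqp2* and *Sntg2* are left out, with 1 point per mouse (WT blue, HET red; circles, squares and triangles are replicates 1, 2 and 3). *Aqp1* lies highest, and *Aqp4*, *Dtna* and *Aqp7*, whose ranges overlap, together span 4.98 to 13.6 CPM per kilobase.

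Among the aquaporins tested, *Aqp1* made up 83.3% to 92.0% of the summed level per length in WT mice and 89.8% to 92.1% in HET mice. *Aqp4* made up 4.31% to 11.3% in WT and 3.78% to 5.98% in HET, and *Aqp7* 2.84% to 5.09% in WT and 3.96% to 5.32% in HET. The share of *Aqp7* was above that of *Aqp4* in HET 2, HET 3 and WT 2. *Aqp11* and *Aqp2* were far lower. *Aqp11* was at 0.860 CPM in WT and 1.15 CPM in HET, and *Aqp2*, the water channel of the kidney collecting duct, had at most 15 reads in any library. The other 7 of the 12 aquaporin genes did not have enough reads to be tested, with at most 12 reads in any library. Of those, *Aqp6* and *Aqp12* had 0 reads in all 6 libraries, which allows up to 0.112 CPM in the smallest library, by counting error only.

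*Aqp4* (ENSMUSG00000024411, chromosome 18, 15389394 to 15403684 on the minus strand, GRCm38) was at 37.6, 33.1 and 26.4 CPM in the HET mice and at 69.3, 39.0 and 46.9 CPM in the WT mice. Every HET mouse lay below every WT mouse, but the gap from HET 1 to WT 2 was small beside the spread within WT, in which WT 1 stood high. The mean of the HET mice was 0.626 of the WT mean, a log2 fold change of -0.68 (SE 0.22, unadjusted p = 0.0146). It did not pass the threshold, with an edgeR adjusted p of 0.415. Without WT 1, the mouse with the most *Aqp4*, the log2 fold change was -0.41 (SE 0.16, edgeR adjusted p = 0.750). DESeq2, the tool of the study, gave -0.67 with an adjusted p of 0.0327, on the other side of the threshold. In that DESeq2 comparison, 0.0562% of the 17801 genes with an adjusted p were called lower in HET.

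*Dtna* (ENSMUSG00000024302, chromosome 18, 23415135 to 23659715 on the plus strand) encodes alpha-dystrobrevin, the dystrophin-bound scaffold to which syntrophins attach. It was at 116, 106 and 105 CPM in the HET mice and at 135, 124 and 124 CPM in the WT mice. The genotypes did not overlap, and the spread within them was small, with a coefficient of variation of 5.75% in HET and 4.99% in WT. The log2 fold change was -0.22 (SE 0.08, edgeR adjusted p = 0.488), a far smaller difference than that of *Aqp4*. WT 1 was the highest mouse and HET 3 the lowest for both *Aqp4* and *Dtna*.

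The beta-syntrophins differed from each other in direction, though neither passed the threshold. *Sntb1* (ENSMUSG00000060429, chromosome 15, 55638843 to 55906949 on the minus strand), which encodes beta-1-syntrophin, was at 2.11, 3.24 and 2.12 CPM in the HET mice and at 3.51, 2.98 and 4.15 CPM in the WT mice. HET 2 lay among the WT mice, while HET 1 and HET 3 lay below them all. The log2 fold change was -0.53 (SE 0.23, unadjusted p = 0.0417, edgeR adjusted p = 0.614). The gene had only 79 to 205 reads per library, so that counting alone gave an SD of up to 11.3%.

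*Sntb2* (ENSMUSG00000041308, chromosome 8, 106935750 to 107019714 on the plus strand), which encodes beta-2-syntrophin, was the only one of the 6 genes with a log2 fold change above 0. It was at 17.3, 13.6 and 20.1 CPM in the HET mice and at 14.4, 14.4 and 13.6 CPM in the WT mice. HET 2 again lay among the WT mice, and the other HET mice lay above them. The WT mice were nearly equal, with a coefficient of variation of 3.50% against 19.3% in HET. The log2 fold change was 0.27 (SE 0.14, edgeR adjusted p = 0.759). Without HET 2, the log2 fold change was 0.42 for *Sntb2* and -0.74 for *Sntb1*, with edgeR adjusted p of 0.281 and 0.336.

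*Aqp1* (ENSMUSG00000004655, chromosome 6, 55336432 to 55348555 on the plus strand), the water channel of vessel walls and red blood cells, was at 292, 359.8 and 333 CPM in the HET mice and at 265, 423 and 444 CPM in the WT mice. WT 1 was the lowest mouse of all and the other WT mice were the highest, so the genotypes overlapped. The log2 fold change was -0.20 (SE 0.18, edgeR adjusted p = 0.889). Without WT 1 it was -0.40, and without WT 3 it was -0.07. WT 1 thus was at opposite ends for the water channels *Aqp1* and *Aqp4*. The ratio of *Aqp4* to *Aqp1* per length was 0.0476 to 0.135 in WT mice and 0.0410 to 0.0666 in HET mice.

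*Aqp7* (ENSMUSG00000028427, chromosome 4, 41033074 to 41048139 on the minus strand), the glycerol channel, was at 14.1, 22.8 and 15.4 CPM in the HET mice and at 17.4, 25.5 and 14.8 CPM in the WT mice. Mouse 2 was the highest of both genotypes and the rest lay close together. The log2 fold change was -0.14 (SE 0.24, edgeR adjusted p = 0.948), and without WT 2 it was 0.11.

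**Figure D2:**
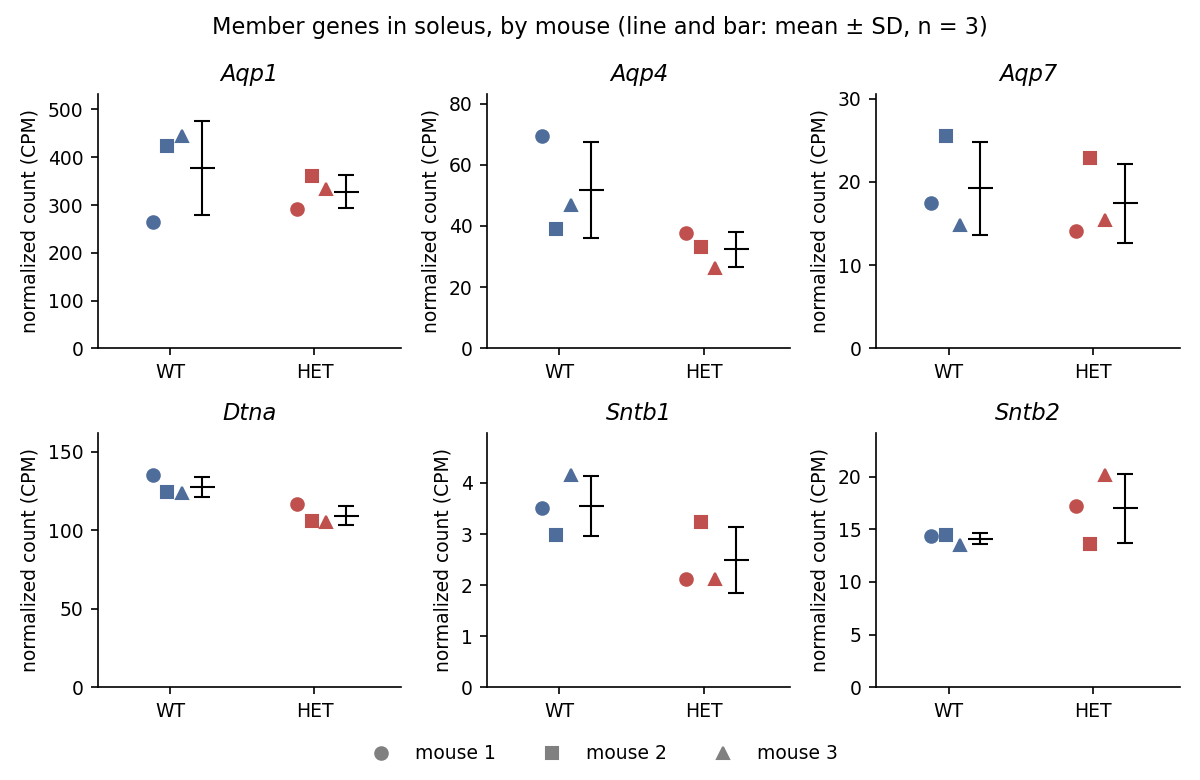
CPM of the 6 genes in each WT (blue) and HET (red) mouse, with an axis from 0 for each gene; marker shapes give the replicate, and the black line and bar give the mean ± SD of 3 mice. The genotypes are apart for *Aqp4* and *Dtna* and overlap for the other 4 genes.

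None of the 6 genes passed the threshold of an adjusted p of 0.05 in edgeR, where 0.150% of the 14696 genes tested passed it, 0.143% higher and 0.00680% lower in HET. An unadjusted p under 0.05 in either direction was found for 3 of the 6, *Aqp4*, *Dtna* and *Sntb1*, and for 7.76% of all genes tested. *Aqp4* and *Dtna*, 2 of the 6, had every HET mouse below every WT mouse, which held for 6.02% of all genes. The log2 fold change was below 0 for 5 of the 6 genes and for 54.4% of all genes, and its median was -0.21 over the 6 genes and -0.02 over all genes. DESeq2 called 1 of the 6, *Aqp4*, and limma-voom called 0. The 6 genes were picked with this comparison in view, so these shares and the p-values of the 6 genes are a description and not a test of them.

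**Figure D3:**
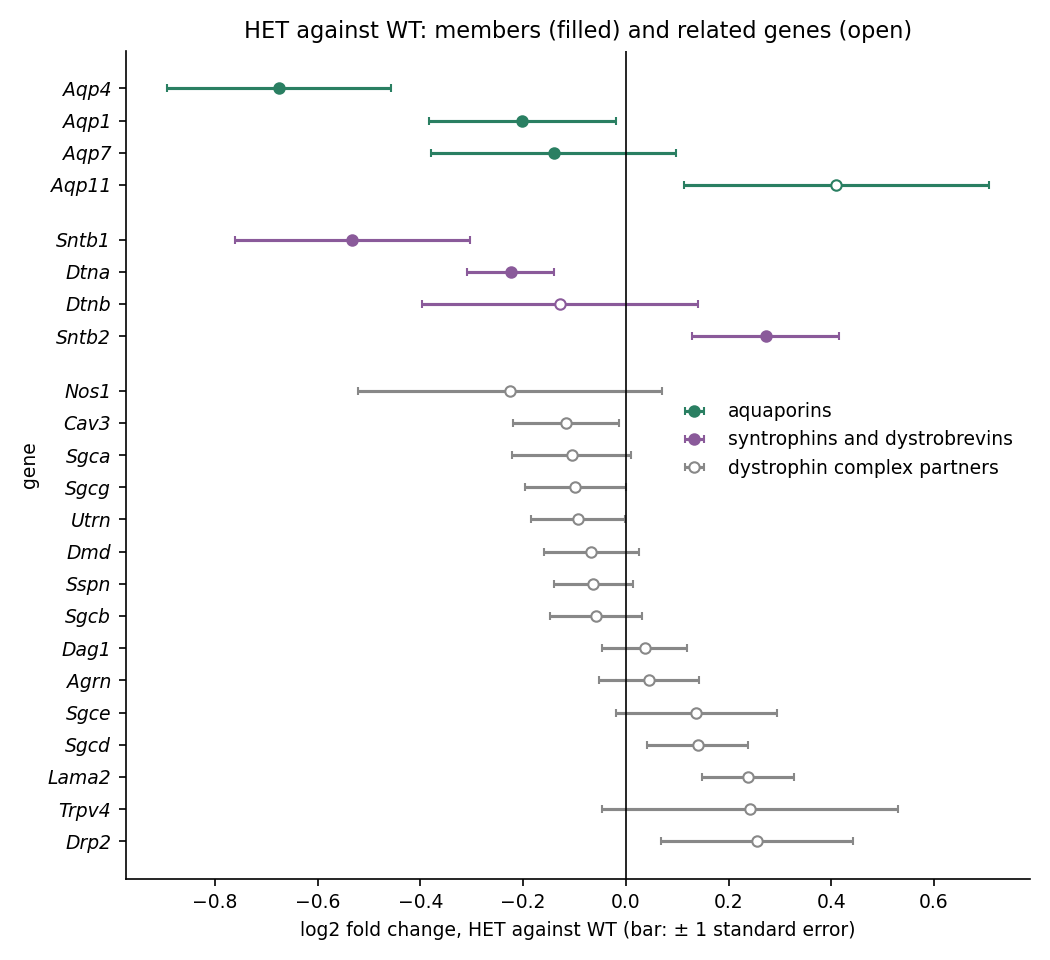
Log2 fold change of HET against WT from edgeR with bars of ± 1 SE, for the 6 genes (filled points) and for the related genes with at least 50 reads in 1 library (open points), grouped as aquaporins, syntrophins and dystrobrevins, and partners in the dystrophin complex. *Aqp4* lies farthest below 0, at -0.68, and *Aqp11* farthest above, at 0.41, with a wide bar.

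The wider gene groups to which these genes belong held no gene past the threshold in edgeR. DESeq2 and limma-voom also called 0 genes in each of them, apart from *Aqp4* by DESeq2, and so they did in the fiber, vessel, blood, fat, nerve and smooth muscle lists described after them. Of the 12 aquaporin genes 5 were tested, 0 passed in either direction, 1 (*Aqp4*) had an unadjusted p under 0.05, and 3 to 4 lay below 0, depending on the scaling of the libraries. *Aqp11*, an aquaporin of inner cell membranes, was the highest, at 0.41 (SE 0.30, edgeR adjusted p = 0.857). In contrast to *Aqp4*, every HET mouse lay above every WT mouse for *Aqp11*. HET 3, at 0.934 CPM, was barely above WT 3, at 0.932 CPM, and the gene had only 21 to 55 reads per library. Of the 6 syntrophins and dystrobrevins listed 5 were tested, 0 passed, 2 (*Sntb1* and *Dtna*) had an unadjusted p under 0.05, and the median log2 fold change was -0.13. *Dtnb*, which encodes beta-dystrobrevin, was at 1.37 CPM in HET and 1.52 CPM in WT, a log2 fold change of -0.13 (SE 0.27, edgeR adjusted p = 0.962). *Sntg2*, a gamma-syntrophin, was highest, at 0.54 (SE 0.67), with at most 14 reads in any library.

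Of 16 partners in and around the dystrophin complex 15 were tested and 0 passed, and 5 to 8 of them lay below 0, depending on the scaling. The only unadjusted p under 0.05 was that of *Lama2*, a laminin chain outside the fiber, with a log2 fold change of 0.24 (SE 0.09, edgeR adjusted p = 0.482). *Dmd*, the dystrophin gene, was at 248 ± 24.5 CPM in HET and 260.4 ± 7.74 CPM in WT (SD, n = 3), with a log2 fold change of -0.07 (SE 0.09, edgeR adjusted p = 0.933). *Utrn*, the gene of the related protein utrophin, was at 76.2 CPM in HET and 81.3 CPM in WT, with a log2 fold change of -0.09 (SE 0.09, edgeR adjusted p = 0.895). The ratio of *Dtna* to *Dmd*, in CPM, was 0.408 to 0.480 in HET and 0.477 to 0.503 in WT, so the ranges overlapped slightly. The group ran from *Nos1*, the muscle's nitric oxide synthase, at -0.23 (SE 0.30, edgeR adjusted p = 0.931) to *Drp2*, a dystrophin-related gene, at 0.26 (SE 0.19, edgeR adjusted p = 0.857). *Kcnj10*, the potassium channel found beside Aqp4 in glia, had only 1 to 11 reads and was not tested.

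All 10 genes that handle glycerol, the second cargo of *Aqp7*, were tested, 0 passed and 1 (*Gpd2*) had an unadjusted p under 0.05. Their median log2 fold change was -0.01, and 3 to 5 lay below 0, depending on the scaling. *Gpd2*, the mitochondrial glycerol-3-phosphate dehydrogenase, was at 29.1, 33.6 and 36.1 CPM in the HET mice and at 43.4, 42.3 and 40.2 CPM in the WT mice. The genotypes did not overlap, and the log2 fold change was -0.35 (SE 0.10, edgeR adjusted p = 0.290), the lowest of the group. *Agpat2*, an enzyme of glycerolipid synthesis, was the highest, at 0.35 (SE 0.29, edgeR adjusted p = 0.878).

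Genes of fast fibers, where *Aqp4* is known to be high, also varied between the mice. *Myh4*, the myosin heavy chain of the fastest fibers, was at 44.7, 2042 and 167 CPM in the HET mice and at 1470.3, 1774 and 976 CPM in the WT mice. HET 1 and HET 3 lay far below the WT mice and HET 2 above them, and the log2 fold change was -0.91 (SE 1.499, edgeR adjusted p = 0.948). *Pvalb*, the calcium buffer parvalbumin, was at 205, 426 and 295 CPM in HET and at 684, 552 and 429 CPM in WT, a log2 fold change of -0.85 (SE 0.29, edgeR adjusted p = 0.492). HET 2, which had the most *Myh4*, had less *Aqp4* than HET 1, which had the least *Myh4*. *Pvalb*, like *Aqp4*, was highest in WT 1 and had every HET mouse below every WT mouse. For *Pvalb* this rested on a very small gap, from HET 2 at 426 CPM to WT 3 at 429 CPM. Over the 6 libraries, Pearson's r of log2 CPM with *Aqp4* was 0.391 for *Myh4* and 0.636 for *Pvalb*. With *Dtna* it was 0.926 and with the fat cell gene *Adipoq* -0.633, and 197 of 14695 genes had an r above 0.9. The r values of the other fast fiber genes are not given here. Every HET mouse lay below every WT mouse in 4 of the 14 fast fiber genes and in 6.02% of all genes. The reverse order held for 0 of the 14. Of the 14 fast fiber genes tested, 0 passed, 1 (*Pvalb*) had an unadjusted p under 0.05 and 13 lay below 0, with a median of -0.17, and their summed level was 51413 to 61521 CPM in HET and 58165 to 60857 CPM in WT. None of the 14 was at 0 reads, and their part in the *Aqp4* value was not tested. Of 11 slow fiber genes, 0 passed, 1 (*Myoz2*) had an unadjusted p under 0.05 and 7 to 9 lay below 0, depending on the scaling. Every HET mouse lay below every WT mouse in 2 of these 11 genes as well, and the reverse order held for 0 of them. Their median was -0.08, with summed levels of 41667 to 44712 CPM in HET and 42679 to 47549 CPM in WT.

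The order of the mice for *Aqp7* was compared with that of vessel, blood and fat genes, a comparison chosen after the values were seen. Mouse 2 was the highest of both genotypes, as for *Aqp7*, in 11 of 13 endothelial genes, in 5 of 5 erythroid genes and in 1 of 9 fat cell genes, and in 11.1% of the 14671 tested genes with a symbol of their own. The count was made for these lists only. Mouse 2 also was highest of both genotypes in the smooth muscle genes *Acta2*, *Myh11* and *Tagln*, but not in *Cnn1*, *Smtn* and *Lmod1*. The same order held for the fast fiber genes *Myh4*, *Myh2*, *Myl1*, *Tnnt3*, *Tnni2* and *Tnnc2*, but not for the other fast fiber genes. Genes of further lists had it too, among them the dystrophin complex gene *Nos1* and the fibroblast gene *Col1a1*. The order thus was not particular to vessel and blood genes. The endothelial genes with another order were *Tek* and *Ptprb*, and the fat cell gene with this order was *Fabp4*, a fatty acid carrier that is also known from endothelium. *Pecam1*, an adhesion molecule of endothelium, was at 133, 158 and 143 CPM in the HET mice and at 147, 166 and 138 CPM in the WT mice, with mouse 2 again highest in both genotypes. *Hbb-bs*, a beta-globin of red blood cells, was at 43.9, 66.3 and 42.0 CPM in HET and at 55.4, 75.8 and 47.9 CPM in WT, with the same mice on top. *Adipoq*, the fat cell hormone adiponectin, had another order, as did 7 more genes of its list, with 9.96, 26.1 and 13.1 CPM in HET and 2.44, 2.94 and 14.2 CPM in WT. The ratio of *Aqp7* to *Pecam1* in CPM was 0.106 to 0.144 in HET and 0.107 to 0.154 in WT.

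**Figure D4:**
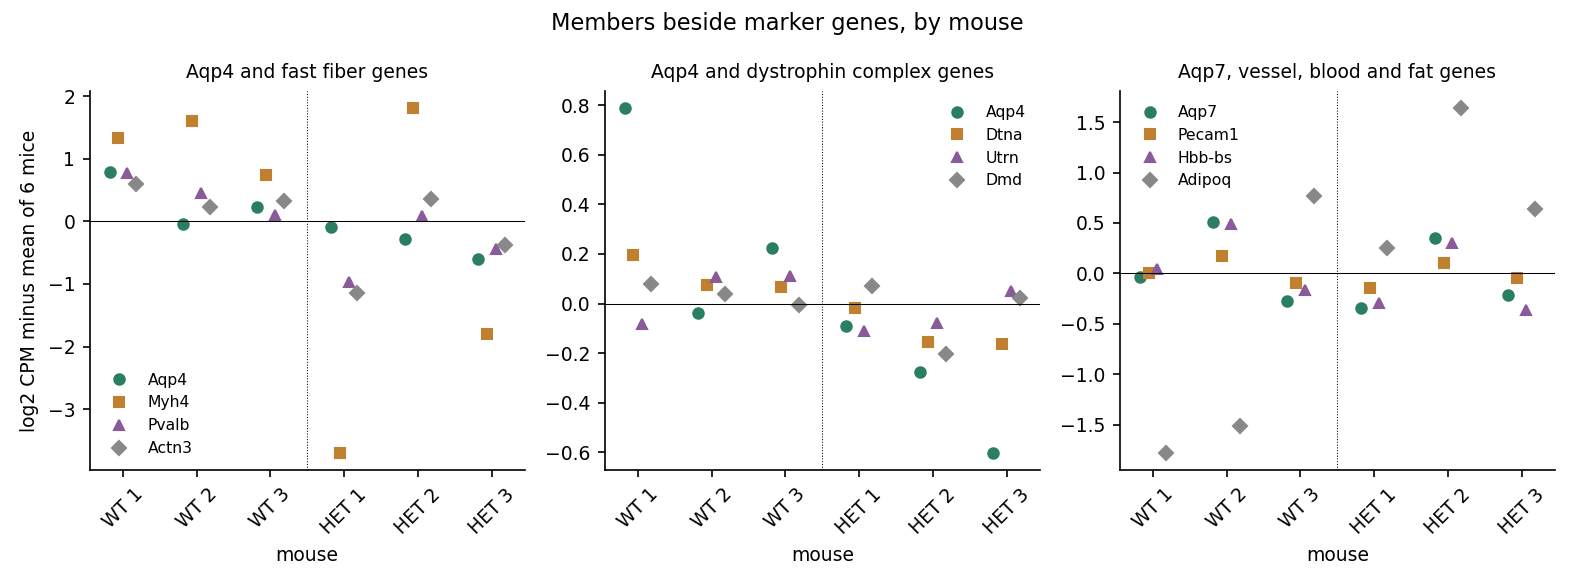
Log2 CPM of *Aqp4* with fast fiber genes, of *Aqp4* with dystrophin complex genes, and of *Aqp7* with vessel, blood and fat genes, in each mouse, as the difference from the mean of the 6 mice for that gene; the dotted line parts WT from HET mice. *Myh4* is lowest in HET 1, at 44.7 CPM, and highest in HET 2, at 2042 CPM, while *Aqp7*, *Pecam1* and *Hbb-bs* are highest in WT 2 and next highest in HET 2.

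Of the 13 endothelial genes, 0 passed, 1 (*Ptprb*) had an unadjusted p under 0.05, 4 to 7 lay below 0 over the scalings, and their summed level was 941 to 1133 CPM in HET and 1031 to 1239 CPM in WT. Of 6 erythroid genes 5 were tested and 0 passed, also by unadjusted p, with sums of 71.5 to 119 CPM in HET and 83.5 to 134 CPM in WT. Of 9 fat cell genes 0 passed, also by unadjusted p, while 6 lay above 0 and the median log2 fold change was 0.95. Their sums, 574 to 914 CPM in HET and 581 to 754 CPM in WT, came mostly from *Plin4* and *Fabp4*, which had log2 fold changes of -0.16 and -0.13. *Cfd*, the adipokine adipsin, was the highest of these at 1.52 (SE 0.72, edgeR adjusted p = 0.768). No marker of these 3 lists was at 0 reads in all libraries, and their part in the *Aqp1* and *Aqp7* values was not tested.

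At the nerve-muscle contact, where alpha-dystrobrevin and the syntrophins are also known to gather, 0 of 8 genes passed and 2 (*Chrna1* and *Chrne*) had an unadjusted p under 0.05. Depending on the scaling, 7 to 8 of them lay below 0, and their median log2 fold change was -0.15. Their summed level was 183 to 215 CPM in HET and 213 to 234 CPM in WT. *Chrna1*, a subunit of the acetylcholine receptor, had a log2 fold change of -0.26 (SE 0.10, edgeR adjusted p = 0.498). The 6 smooth muscle genes and the 8 Schwann cell genes held 0 that passed, also by unadjusted p, with medians of 0.07 and 0.05.

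Among the lists, genes passed the threshold in those of macrophages and fibroblasts. Of 10 macrophage genes, *C1qa*, *C1qb*, *Csf1r*, *Adgre1*, *Lyz2* and *Ctss*, 6 in all, rose in HET by edgeR, where 0.143% of all genes rose. Their log2 fold changes were between 1.29 and 1.61, and the summed level of the list was 90.5 to 130.0 CPM in HET and 51.5 to 56.5 CPM in WT. Of 10 fibroblast genes, 1, *Pi16*, rose by 1.06 on the log2 scale (SE 0.15, edgeR adjusted p = 0.0452), and the list summed to 2569 to 3648 CPM in HET and 1204 to 1994 CPM in WT. DESeq2 called 8 and limma-voom 2 of the macrophage genes, and of the fibroblast genes DESeq2 called 4 and limma-voom 0. With edgeR 0 genes of the whole table, *Mustn1* included, passed without HET 1, HET 3, WT 1 or WT 2. The lists were chosen with earlier results of these data known, so these counts are a description and not a test. The part of these cells in the values of the 6 genes was not tested.

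For each of the 6 genes, the genes with the most similar pattern over the 6 libraries were found by Pearson's r of log2 CPM among 14695 genes. They are the highest of many and come with no p. *Aqp7* was most like *Pecam1* (r = 0.986, Spearman's rho = 1.0, and r = 0.955 without the 2 mice farthest from the median of *Aqp7*), then *Spns2*, a lipid transporter, and *Abhd1*, for which r without those 2 mice was 0.825 and 0.703. *Aqp4* was most like *1700123M08Rik*, *Exosc1*, a part of the RNA exosome, and the chemokine gene *Ccl27a*, with r between 0.986 and 0.994. *Aqp1* was most like *Gm48069*, *Ccsap* and *Ston1*, with r between 0.985 and 0.987. *Gm48069* was at only 0.234 to 0.588 CPM and *Ccsap* at 0.268 to 0.745 CPM, so their order rests on few reads. *Dtna* was most like *St3gal6*, a sialyltransferase, *Svip* and *Lcmt1*, with r between 0.988 and 0.994. *Sntb1* was most like *Wdr11*, *Adsl*, an enzyme of purine synthesis, and *Dhcr7*, an enzyme of cholesterol synthesis, with r between 0.989 and 0.996. *Sntb2* was most like *Sv2a*, a synaptic vesicle protein, *Lef1*, a transcription factor of Wnt signaling, and *Fam91a1*, with r between 0.984 and 0.993. Without the 2 farthest mice, however, r with *Sv2a* was 0.729 and with *Fam91a1* 0.643. *Lef1* also had few reads, at 0.243 to 1.05 CPM.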

How the data were processed

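Poly-A RNA of the soleus was made into stranded libraries. The authors aligned the reads to GRCm38.p6 with STAR 2.7.3a and deposited raw counts per gene from featureCounts 2.0.3, run in its reverse-stranded mode. They also deposited a normalized signal, the counts divided by a DESeq2 size factor per library, which was used only to find the 6 genes. The third deposited file, with the authors' comparison, was not used. The 6 genes and the gene lists were chosen with earlier results of these data known.

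Counts were analysed in R 4.3.3 with edgeR 4.0.16 (TMM scaling, filterByExpr at a minimum of 10, robust quasi-likelihood test of genotype, two-sided, Benjamini-Hochberg adjustment over 14696 genes, threshold 0.05). The SE is the log2 fold change over the square root of F. CPM used TMM factors, and levels per length were divided by the exon length in the count table. Gene symbols came from GENCODE M21. DESeq2 1.42.0 and limma 3.58.1 were alternatives, beside other scalings, filters, dispersions, a replicate block, a length correction and each mouse left out. Python 3.11.15 was used for tables and plots, with pandas 2.3.3, NumPy 2.4.6 and matplotlib 3.10.9.

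Libraries held 26790075 to 50368796 reads on genes. Intervals from counting cover counting error only. The littermate controls are separate mice, but litters are not given. The steps were tested on simulated data. The genes named are the 6 genes and set reference genes. Of each list, those past the threshold and those at the ends of its range are named, as far as the text needs them. *Actn3* in the plot and the genes named for an unadjusted p or for the order of the mice were added after their values were seen. In GENCODE M21, no same-strand exon of another gene overlaps the 6 genes, and *Aqp4*, *Dtna* and *Sntb2* each overlap 1 gene on the other strand. The start and end in the count table match M21 for 4 of the 6 genes. For *Aqp4* and *Sntb1* they differ, so the model checked is not quite the one counted. No sequences are printed. A related gene is not reported here.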

Additional observations from a re-analysis of the deposited data

How the results depend on the processing

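Of 17 alternatives to each log2 fold change, 17 kept the direction and the side of the threshold for *Aqp1*, *Sntb1*, *Sntb2* and *Dtna*, 16 for *Aqp7* and 15 for *Aqp4*. *Aqp4* passed the threshold at -0.67 without the filter on low counts (edgeR adjusted p = 9.14e-06) and at -0.67 with DESeq2 (adjusted p = 0.0327), and its adjusted p ran up to 0.944. With single mice left out, *Aqp4* ran from -0.84 to -0.41, and *Aqp7* from -0.36 without HET 2 to 0.11 without WT 2. The 22 genes past the threshold became 404 without the filter, 210 with DESeq2, 3 with limma-voom, 6 with non-robust dispersion, and 0 to 83 with single mice left out. These counts were 0 without HET 1, HET 3, WT 1 or WT 2, where 768 to 1242 genes had an unadjusted p under 0.05, and 83 without WT 3. The cause was not tested. Whether replicate numbers pair the mice is not known, as litters are not given. Deviations of same-numbered mice from their genotype means correlated at 0.203, -0.006 and -0.035. HET 1 correlated best with its own number, and HET 2 and HET 3 with another. With 3 mice per genotype, these correlations cannot decide it. With the replicate block 116 genes passed, and 142 with the block and the length correction; *Aqp4* then was at -0.65 (edgeR adjusted p = 0.0995) and -0.66 (0.0733). Depth limits *Sntb1* most, with 79 to 205 reads.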
